A study of Mus musculus with 7 samples.

Results

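The 43 genes described here run mitosis, the division of the copied chromosomes between daughter cells, and were taken by name from the count table of the series, in which all 43 were found among 49492 genes. They were grouped by role into 10 sets: kinases, cyclins and phosphatases of mitotic entry, transcription factors of the program, the chromosomal passenger complex, the spindle assembly checkpoint, partners of the anaphase-promoting complex, centromere and kinetochore proteins, spindle kinesins, other spindle proteins, midzone and cytokinesis proteins, and chromosome structure. Their RNA was read by bulk RNA-seq in 7 libraries from mouse models of glioblastoma (GBM), the most malignant glioma of the brain. The 4 NPCTKO samples came from tumors started in embryos, by in utero electroporation of piggyBac plasmids with Cas9, luciferase and single-guide RNAs against tumor suppressor genes, Trp53 and Nf1 among them, into neural precursors of the neocortex, together with an EGFP or DsRed cassette that labels their progeny. Tumor cells were then brought into suspension, and those that were EGFP+ or DsRed+ were collected by FACS for RNA. The 3 NSCHRas-shp53 samples came from tumors started in adult mice, by injection of lentivirus carrying constitutively active human HRAS and a short hairpin RNA against Trp53 into the ventricular-subventricular zone, and whole tumor tissue was used without sorting. All 7 samples are labelled C57BL/6 GBM at 3 months of age. Model and preparation changed together and cannot be told apart. No library comes from brain without tumor. The sources do not say which samples share a mouse, so p-values measure the spread between libraries, part of which may be technical. The series design speaks of profiling in duplicate, without naming which samples are duplicates. In bulk RNA, fewer dividing cells and less RNA of these genes per cell cannot be told apart.

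Cells enter mitosis when Cdk1, bound to its cyclins, becomes active; chromosomes then condense, attach to the spindle through their kinetochores, and are pulled apart once the spindle assembly checkpoint lets the anaphase-promoting complex destroy cyclin B and securin. Most genes of this machinery are transcribed late in the cell cycle and are silent in resting cells. In that program the MuvB complex represses the promoters in quiescent cells and, joined by B-Myb (Mybl2) and Foxm1, activates them before mitosis. It reaches them through a short element at the start site, the cell cycle genes homology region, while NF-Y binds CCAAT boxes upstream. High levels of these RNAs are a known mark of dividing cells in malignant glioma.

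Promoter sequence was available for 35 of the 43 genes, as RefSeq windows of 300 bases on GRCm38.p6 from 250 bases before to 50 after the start site, and 6 are shown because the results below turn on these genes. Cdc20 and Ccnb2 differed between the models by the test, Mybl2 did so with neither element in its window, and Top2a, Mki67 and Anln varied widely within NPCTKO. Each sequence is written 5′ to 3′ on the strand of the gene. Capitals mark CCAAT boxes (CCAAT, or ATTGG on the other strand) and homology regions (TTTGAA or TTCGAA, with TTCAAA on the other strand).
Cdc20 (chr4:118437294-118437593, minus strand): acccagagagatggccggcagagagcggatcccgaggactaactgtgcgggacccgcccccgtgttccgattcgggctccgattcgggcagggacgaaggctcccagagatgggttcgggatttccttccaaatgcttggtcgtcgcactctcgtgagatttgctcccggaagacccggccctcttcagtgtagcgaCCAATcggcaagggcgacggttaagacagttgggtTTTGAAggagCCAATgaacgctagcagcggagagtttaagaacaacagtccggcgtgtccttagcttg
Ccnb2 (chr9:70421505-70421804, minus strand): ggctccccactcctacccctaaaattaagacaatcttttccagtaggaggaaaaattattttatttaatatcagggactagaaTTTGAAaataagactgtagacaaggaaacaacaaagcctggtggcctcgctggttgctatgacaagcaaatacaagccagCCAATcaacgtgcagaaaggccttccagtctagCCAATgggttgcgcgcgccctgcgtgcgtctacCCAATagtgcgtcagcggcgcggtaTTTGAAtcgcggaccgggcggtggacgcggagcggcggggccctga
Mybl2 (chr2:163054385-163054684, plus strand): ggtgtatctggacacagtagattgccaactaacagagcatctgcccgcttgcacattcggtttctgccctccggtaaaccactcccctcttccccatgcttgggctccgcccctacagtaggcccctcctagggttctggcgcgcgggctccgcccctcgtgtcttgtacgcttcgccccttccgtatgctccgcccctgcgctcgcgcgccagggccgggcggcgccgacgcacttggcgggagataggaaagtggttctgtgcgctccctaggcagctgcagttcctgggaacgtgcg
Top2a (chr11:99024140-99024439, minus strand): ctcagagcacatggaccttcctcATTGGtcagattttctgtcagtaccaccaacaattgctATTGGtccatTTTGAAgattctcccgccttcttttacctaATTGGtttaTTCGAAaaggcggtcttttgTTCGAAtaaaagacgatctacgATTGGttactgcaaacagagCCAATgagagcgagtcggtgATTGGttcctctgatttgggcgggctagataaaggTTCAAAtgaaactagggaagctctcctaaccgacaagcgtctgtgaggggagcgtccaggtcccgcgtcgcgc
Mki67 (chr7:135716330-135716629, minus strand): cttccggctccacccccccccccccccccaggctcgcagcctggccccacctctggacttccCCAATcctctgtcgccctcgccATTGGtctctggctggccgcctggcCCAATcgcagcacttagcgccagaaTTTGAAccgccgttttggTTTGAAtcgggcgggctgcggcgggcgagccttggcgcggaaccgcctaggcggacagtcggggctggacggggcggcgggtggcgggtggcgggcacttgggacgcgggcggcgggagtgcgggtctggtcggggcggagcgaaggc
Anln (chr9:22389157-22389456, minus strand): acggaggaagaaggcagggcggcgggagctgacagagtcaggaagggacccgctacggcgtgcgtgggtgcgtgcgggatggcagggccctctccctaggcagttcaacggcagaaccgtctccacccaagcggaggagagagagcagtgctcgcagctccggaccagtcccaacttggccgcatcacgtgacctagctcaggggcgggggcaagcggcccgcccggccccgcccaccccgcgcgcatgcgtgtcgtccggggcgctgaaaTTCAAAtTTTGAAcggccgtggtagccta

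CCAAT boxes and homology regions were common in these windows. A CCAAT box was found in 27 of 35 windows (77.1%, 95% Wilson interval 61.0 to 87.9%), against 37.9% of 27018 windows of all genes in the RefSeq table. The homology region was also found in 27 of 35 (77.1%), against 19.4% of all windows. Within 50 bases on either side of the start site, a span chosen after the sequences were seen, 25 of 35 windows (71.4%) held it, against 5.29% of all. Both elements stood together in 24 windows. Of the printed promoters, Ccnb2 held 3 CCAAT boxes and 2 homology regions, Top2a 6 and 4, Mki67 3 and 2, and Cdc20 2 and 1. Anln held 2 homology regions without a CCAAT box. Neither element was found in the windows of Mybl2, Birc5, Mad2l1, Nuf2 and Nusap1. The letters GGCGG were found in 88.6% of the members' windows and 49.0% of all, and the MYB motif (CNGTTA or CNGTTG) in 60.0 and 49.7%. One of 4 spellings of an E2F site (TTTGGCGC, TTTCGCGC, TTTCCCGC or TTTGCCGC) was found in 1 of 35 (2.86%) and in 2.32% of all. Both strands were searched, and a match of letters is a description of the window, not a binding site.

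**Figure D1:**
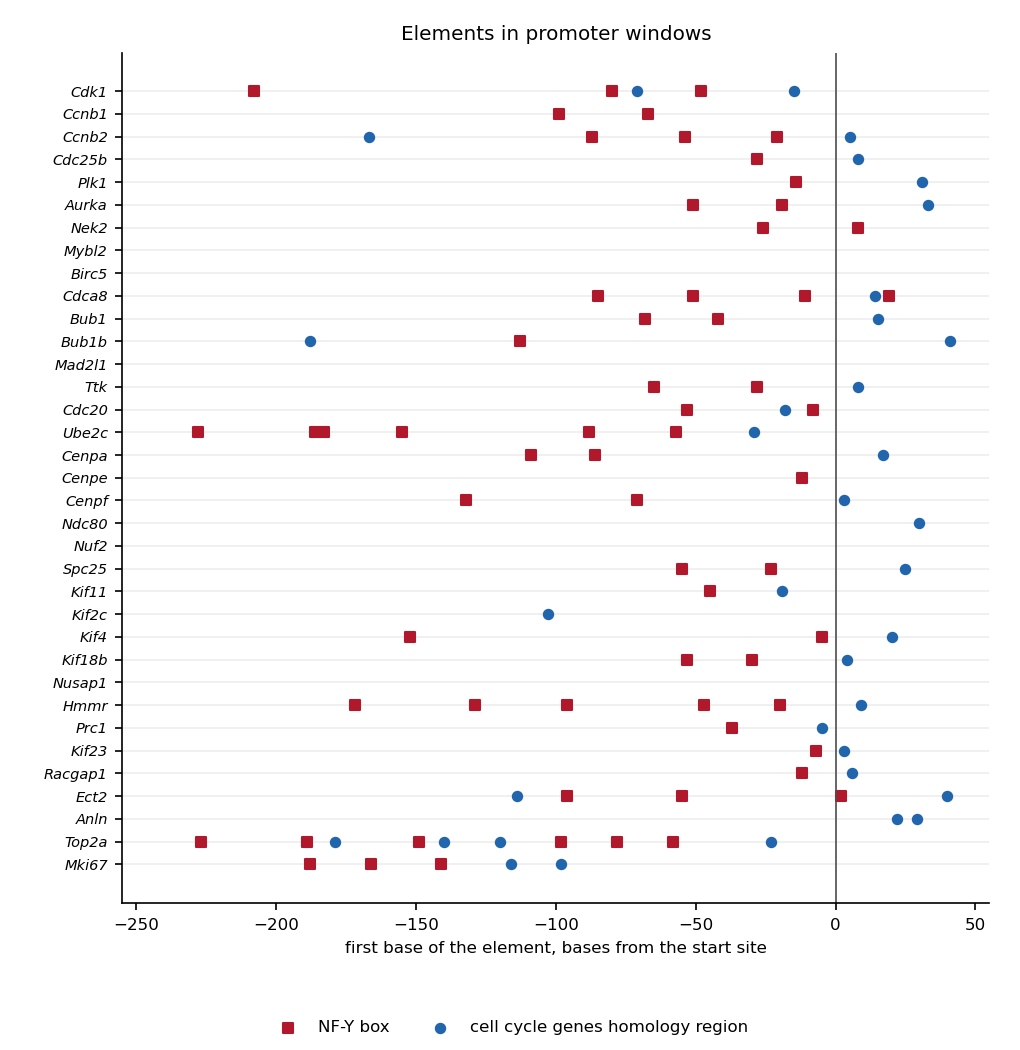
Positions of NF-Y (CCAAT) boxes, as red squares, and of cell cycle genes homology regions, as blue circles, in the promoter windows of 35 mitosis genes, with the distance of the first base of the element from the start site in bases on the x axis and a gene in each row. Boxes lie mostly before the start site and homology regions close to it, and 5 genes have neither.

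Levels are given as CPM, that is counts scaled to library size with TMM factors, which correct for differences in RNA composition. The total counts ranged from 15002873 to 19247326 in NPCTKO and from 17529054 to 19840860 in NSCHRas-shp53 samples, so that 3 counts, taken as the floor, came to 0.130 to 0.234 CPM. This floor covers counting error only, and the 41 genes that could be read lay above it in every library. Kif18b and Prc1 were at 0 in all 7 libraries. Both lie wholly within other genes on the map, as do 11072 genes of the table, of which 11066 were at 0 in all libraries, so these 2 were read from the deposited FPKM values (fragments scaled to transcript length and library size). The libraries were made without strand information. In all, 22 of the 43 genes overlap another gene, among them Kif20a with Cdc23, Cdc20 with Elovl1, Ube2c with Tnnc2, Ccna2 with Exosc9 and Nusap1 with Oip5, and reads in the shared stretch cannot be assigned. Trp53, edited in NPCTKO and targeted by the hairpin in NSCHRas-shp53, was read at 91.9 to 201 CPM in NPCTKO and 54.9 to 82.3 CPM in NSCHRas-shp53. Nf1, also edited in NPCTKO, was read at 41.6, 46.2, 230.2 and 159 CPM in NPCTKO samples 1 to 4 and at 98.4, 118 and 133 CPM in NSCHRas-shp53 samples 1 to 3, so that samples 3 and 4 of NPCTKO lay above and samples 1 and 2 below every NSCHRas-shp53 sample. These gene totals show neither the edit nor, with no untreated brain beside them, the knockdown.

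The question put to these libraries was how the mitosis genes differ between the 2 tumor models. All 41 genes that could be tested had lower estimates in NSCHRas-shp53 whole tumors than in sorted NPCTKO cells, and 21 of them passed the test. Over the whole table, edgeR called 5.28% of 16091 genes lower in NSCHRas-shp53 and 7.77% higher (quasi-likelihood test, Benjamini-Hochberg adjusted p under 0.05), and 0 of the 41 was called higher, by DESeq2 or at an unadjusted p under 0.05 either. Their median log2 fold change was -1.90, and that of all genes tested was -0.10. For the 21 called genes the difference was 3.11- to 7.63-fold, with adjusted p from 0.0033 to 0.022 by edgeR. In 27 of the 41, every NPCTKO library lay above every NSCHRas-shp53 library, an order shown by 14.9% of all genes tested, and no gene showed the opposite order, which 16.3% of all genes did. By FPKM, 32 of 43 genes did not overlap, all higher in NPCTKO, but the share of all genes was not computed on this scale.

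**Figure D2:**
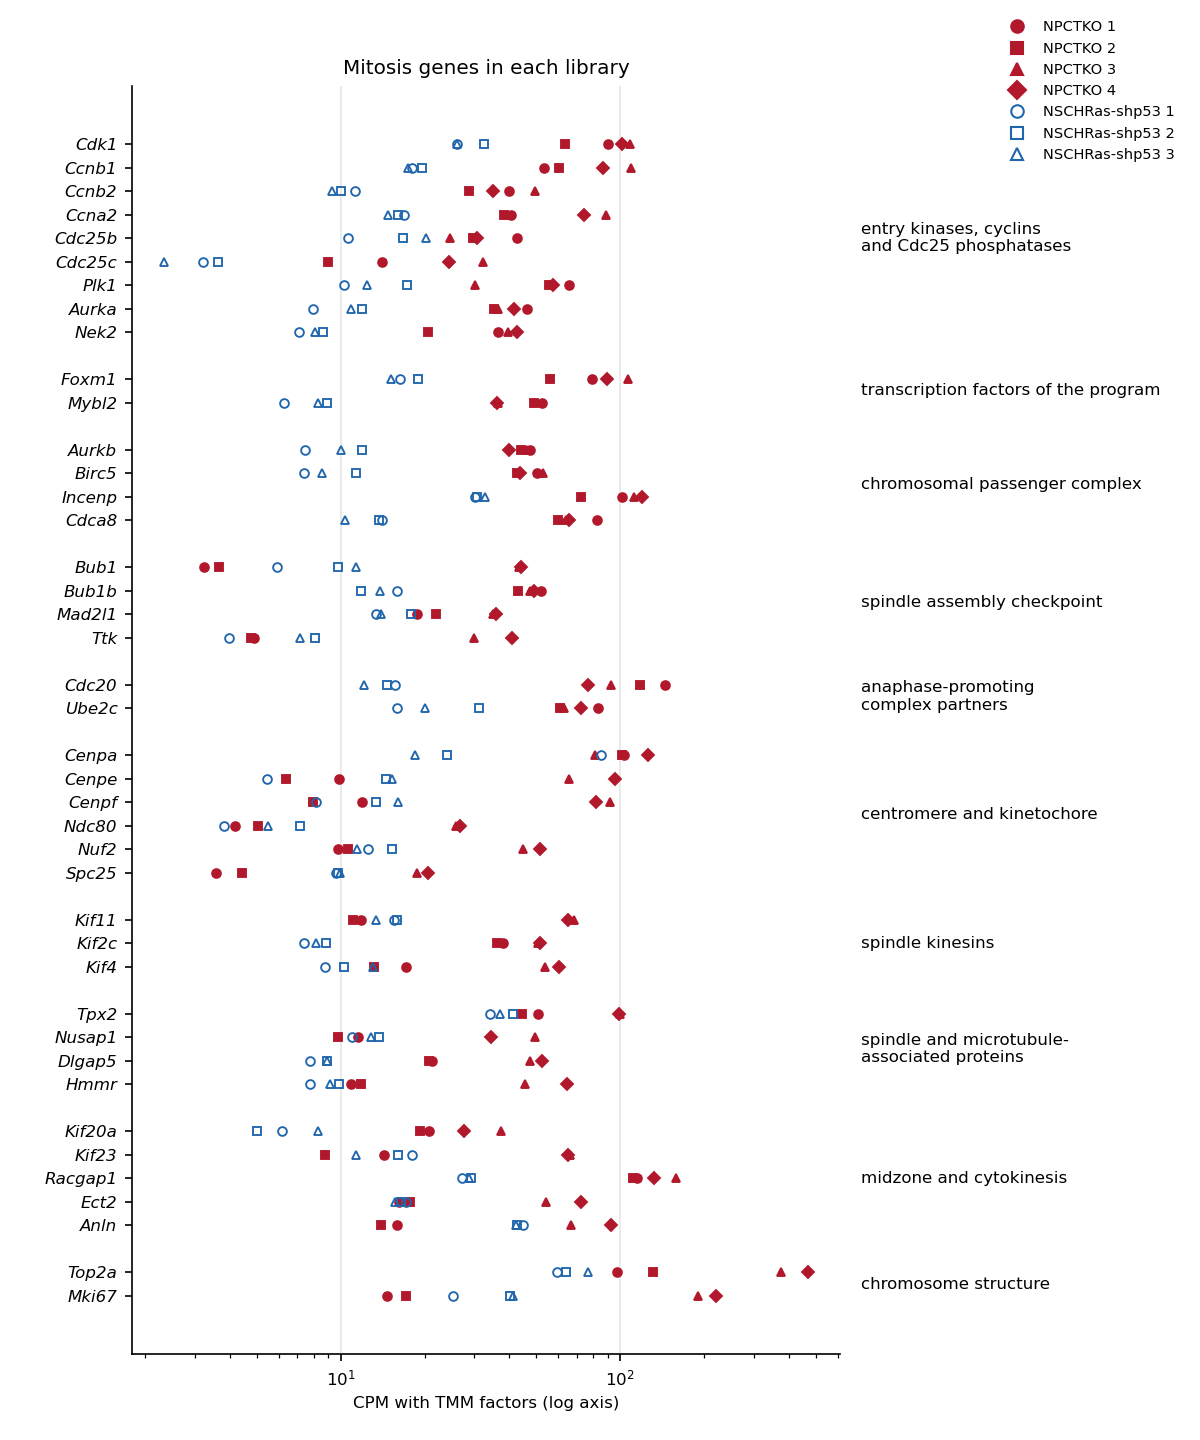
CPM with TMM factors (x axis, log scale) of the 41 mitosis genes that held counts, a row for each gene in blocks by role, with filled red symbols for the 4 NPCTKO samples and open blue symbols for the 3 NSCHRas-shp53 samples. Red symbols stand apart to the right for Cdc20, Foxm1 or Racgap1, while for Mki67, Bub1 or Anln NPCTKO samples 1 and 2 lie to the left of the blue ones.

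Summed over the 41 genes with counts, the level was 1749, 1519, 2941 and 3116 CPM in NPCTKO samples 1 to 4 and 678, 732 and 688 CPM in NSCHRas-shp53 samples 1 to 3. The NPCTKO mean was 3.33 times the other, or 3.41 times in summed FPKM, which also holds Kif18b and Prc1, and 3.06 times without TMM factors. Within NSCHRas-shp53 the 3 libraries held nearly the same sum. Gene by gene, the highest of the 3 was under 2 times the lowest for 38 of 41 genes. In NPCTKO this held for 18 of 41, and samples 3 and 4 held more than samples 1 and 2. Without TMM factors the median of all genes moved by 0.18 on the log2 scale, 18 of the 21 genes stayed called, Ccna2, Dlgap5 and Kif20a were lost, and all 41 estimates stayed below 0.

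Per length of transcript, Ube2c had the highest mean of the members in both models, although in NSCHRas-shp53 sample 1 Cenpa (25.8 FPKM) exceeded it (19.2 FPKM). The level of Ube2c was 80.97 ± 10.1 FPKM (SD, n = 4) in NPCTKO and 28.1 ± 10.7 FPKM (SD, n = 3) in NSCHRas-shp53. Behind it in NPCTKO came Cdc20 (57.1 ± 12.02 FPKM (SD, n = 4) in NPCTKO and 8.21 ± 1.02 FPKM (SD, n = 3) in NSCHRas-shp53). Top2a followed with 50.5 ± 32.04 FPKM (SD, n = 4) in NPCTKO and 11.6 ± 2.31 FPKM (SD, n = 3) in NSCHRas-shp53, and Cenpa with 50.2 ± 7.73 FPKM (SD, n = 4) in NPCTKO and 14.7 ± 9.72 FPKM (SD, n = 3) in NSCHRas-shp53. The SDs of Cdc20, Top2a and Cenpa in NPCTKO are wider than the gaps between them, so their order is not resolved. In NSCHRas-shp53 the next means after Ube2c were those of Cenpa, Prc1, Top2a and Mad2l1. These lie within the SD of Cenpa of each other, as do lower means such as that of Cdk1 (9.82 FPKM), so their order is not resolved. The lowest means were those of Bub1 in NPCTKO (4.99 FPKM) and of Cenpf in NSCHRas-shp53 (1.35 FPKM).

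Of the 9 genes of mitotic entry, 8 were lower in NSCHRas-shp53 by the test and all 9 had no overlap between the models. Cdk1, the kinase that drives entry (chromosome 10 of mm10 from 69336635 to 69352938), had 90.5, 63.6, 108 and 101 CPM in NPCTKO samples 1 to 4 and 26.1, 32.6 and 26.1 CPM in NSCHRas-shp53 samples 1 to 3. It was 3.21-fold higher in NPCTKO (log2 fold change -1.68 ± 0.29 (SE), edgeR adjusted p = 0.011). Its partner Ccnb1, cyclin B1, was read at 53.5, 60.6, 109 and 86.4 CPM in NPCTKO samples 1 to 4 and at 17.9, 19.5 and 17.3 CPM in NSCHRas-shp53 samples 1 to 3 and differed by 4.23-fold (log2 fold change -2.08 ± 0.33 (SE), edgeR adjusted p = 0.0085). The NSCHRas-shp53 samples held Ccnb1 within 1.13-fold of each other. Ccnb2, the other B-type cyclin (chromosome 9 of mm10 from 70407692 to 70421547), stood at 40.1, 28.8, 49.6 and 35.1 CPM against 11.2, 10.05 and 9.30 CPM and fell by 1.91 on the log2 scale (SE 0.31, edgeR adjusted p = 0.0092). Ccna2, the cyclin A of S phase and early mitosis, was read at 40.8, 38.4, 88.9 and 74.2 CPM against 16.8, 15.98 and 14.7 CPM, with samples 3 and 4 above samples 1 and 2 of NPCTKO (log2 fold change -1.94 ± 0.38 (SE), edgeR adjusted p = 0.016).

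Cdc25 phosphatases strip the inhibitory phosphates from Cdk1, and 1 of the pair measured here was called. Cdc25c was read at 13.99, 8.97, 32.4 and 24.5 CPM in NPCTKO samples 1 to 4 and at 3.22, 3.65 and 2.34 CPM in NSCHRas-shp53 samples 1 to 3, and was 6.50-fold higher in NPCTKO (log2 fold change -2.70 ± 0.53 (SE), edgeR adjusted p = 0.016). Cdc25b was read at 42.9, 29.8, 24.5 and 30.8 CPM against 10.6, 16.7 and 20.2 CPM and was not called (log2 fold change -1.02 ± 0.35 (SE), edgeR adjusted p = 0.093), although its groups did not overlap. Whether the change of Cdc25b differs from that of Cdc25c was not tested. Plk1, the Polo-like kinase of entry, centrosomes and cytokinesis, was read at 65.3, 55.7, 30.1 and 57.6 CPM against 10.3, 17.3 and 12.4 CPM, with sample 3 the lowest of NPCTKO (log2 fold change -1.97 ± 0.37 (SE), edgeR adjusted p = 0.014). Aurka, the Aurora kinase of centrosomes and spindle poles, held 46.2, 35.3, 36.6 and 41.8 CPM against 7.92, 11.9 and 10.9 CPM, a narrow range within NPCTKO (log2 fold change -1.96 ± 0.30 (SE), edgeR adjusted p = 0.0079). Nek2, which separates the centrosomes, held 36.5, 20.4, 39.7 and 42.6 CPM against 7.10, 8.63 and 8.09 CPM (log2 fold change -2.13 ± 0.36 (SE), edgeR adjusted p = 0.010). All the NPCTKO values of these 3 kinases exceeded every NSCHRas-shp53 value.

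Both transcription factors of the program were lower in NSCHRas-shp53. Foxm1, a forkhead factor that activates genes of late interphase and mitosis (chromosome 6 of mm10 from 128362967 to 128376146), had 78.98, 55.9, 106 and 89.4 CPM in NPCTKO samples 1 to 4 and 16.3, 18.9 and 15.1 CPM in NSCHRas-shp53 samples 1 to 3, a difference of 4.93-fold (log2 fold change -2.30 ± 0.31 (SE), edgeR adjusted p = 0.0054). Mybl2, the B-Myb subunit that joins MuvB (chromosome 2 of mm10 from 163054687 to 163084688), had 52.5, 48.98, 36.6 and 36.1 CPM in NPCTKO samples 1 to 4 and 6.29, 8.93 and 8.26 CPM in NSCHRas-shp53 samples 1 to 3 and differed by 5.56-fold (log2 fold change -2.48 ± 0.32 (SE), edgeR adjusted p = 0.0046). The lowest NPCTKO sample held 4.05 times as much Mybl2 as the highest NSCHRas-shp53 sample. Of 14 genes that encode MuvB, its E2F, DP and pocket protein partners and NF-Y, 8 had estimates below 0, with a median log2 fold change of -0.67. In 5 of the 14 every NPCTKO library lay above every NSCHRas-shp53 library, and in 1 the order was the opposite. Of all genes tested, 14.9 and 16.3% showed these orders. By edgeR 2 were lower and 0 higher (5 lower and 0 higher at an unadjusted p under 0.05, 3 and 0 by DESeq2). Over all genes 5.28% were lower by edgeR, 2436 of 16091 at an unadjusted p under 0.05 and 9.41% by DESeq2. The 2 called by edgeR were Tfdp1, the DP partner of E2F factors, at 153, 199, 203 and 191 CPM against 75.1, 107 and 90.4 CPM (log2 fold change -1.04 ± 0.27 (SE), edgeR adjusted p = 0.042), and Rbbp4, a histone-binding subunit of MuvB and other complexes, at 179.6, 218, 171 and 133 CPM against 100.4, 65.9 and 85.4 CPM (log2 fold change -1.07 ± 0.30 (SE), edgeR adjusted p = 0.050). Nfyc, a subunit of NF-Y, was at 60.7, 65.7, 59.7 and 50.4 CPM against 40.1, 34.9 and 31.3 CPM (log2 fold change -0.74 ± 0.25 (SE), edgeR adjusted p = 0.087). E2f4, a factor that represses with the pocket proteins, was at 97.6, 104, 60.8 and 66.7 CPM against 38.9, 50.9 and 53.2 CPM (log2 fold change -0.79 ± 0.30 (SE), edgeR adjusted p = 0.12).

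The chromosomal passenger complex corrects faulty attachments of chromosomes to the spindle and later acts in cytokinesis, and all 4 of its genes were lower in NSCHRas-shp53. Aurkb, its kinase, was read at 47.7, 44.2, 46.5 and 40.02 CPM in NPCTKO samples 1 to 4 and at 7.43, 11.9 and 10.03 CPM in NSCHRas-shp53 samples 1 to 3 (log2 fold change -2.19 ± 0.30 (SE), edgeR adjusted p = 0.0055). Birc5 (survivin), which brings the complex to centromeres, was read at 50.5, 42.8, 53.1 and 43.9 CPM against 7.38, 11.4 and 8.56 CPM (log2 fold change -2.38 ± 0.30 (SE), edgeR adjusted p = 0.0044). Cdca8 (borealin), its other targeting subunit, was read at 82.5, 59.7, 64.1 and 65.6 CPM against 13.99, 13.7 and 10.4 CPM (log2 fold change -2.42 ± 0.28 (SE), edgeR adjusted p = 0.0037). Within NPCTKO the highest library was 1.19, 1.24 and 1.38 times the lowest for Aurkb, Birc5 and Cdca8, a spread far below the difference between the models. Incenp, the scaffold, was the most abundant of the 4 in CPM, at 101, 72.4, 112 and 119.8 CPM against 30.2, 30.7 and 32.9 CPM, with sample 2 the lowest of NPCTKO (log2 fold change -1.70 ± 0.28 (SE), edgeR adjusted p = 0.0094).

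Of the 4 checkpoint genes, which hold back anaphase until every kinetochore is attached, only Bub1b passed the test. Bub1b (BubR1), part of the inhibitor of the anaphase-promoting complex, was read at 52.1, 42.97, 47.6 and 49.02 CPM in NPCTKO samples 1 to 4 and at 15.9, 11.8 and 13.8 CPM in NSCHRas-shp53 samples 1 to 3 (log2 fold change -1.79 ± 0.27 (SE), edgeR adjusted p = 0.0074). Mad2l1 (Mad2), another part of that inhibitor, was read at 18.8, 21.8, 35.1 and 35.8 CPM against 13.3, 17.9 and 13.9 CPM, groups that just failed to overlap (log2 fold change -0.89 ± 0.35 (SE), edgeR adjusted p = 0.13). Bub1, the kinase that marks centromeres for the checkpoint, was read at 3.23, 3.67, 43.3 and 44.1 CPM in NPCTKO samples 1 to 4 and at 5.90, 9.79 and 11.3 CPM in NSCHRas-shp53 samples 1 to 3. Samples 3 and 4 of NPCTKO thus held at least 11.8 times as much Bub1 as samples 1 and 2, which lay below all NSCHRas-shp53 samples (log2 fold change -1.39 ± 0.96 (SE), edgeR adjusted p = 0.37). Ttk (Mps1), the kinase at the head of the checkpoint, was split in the same way, at 4.91, 4.76, 30.1 and 41.1 CPM against 3.99, 8.07 and 7.14 CPM (log2 fold change -1.66 ± 0.83 (SE), edgeR adjusted p = 0.22).

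Both partners of the anaphase-promoting complex were lower in NSCHRas-shp53, and Cdc20 had the estimate farthest from 0 of all 41 genes. Cdc20, the activator that the checkpoint restrains (chromosome 4 of mm10 from 118432901 to 118437352), had 145, 118, 92.7 and 76.9 CPM in NPCTKO samples 1 to 4 and 15.7, 14.7 and 12.1 CPM in NSCHRas-shp53 samples 1 to 3. It was 7.63-fold higher in NPCTKO (log2 fold change -2.93 ± 0.33 (SE), edgeR adjusted p = 0.0033), and its lowest NPCTKO sample held 4.90 times the highest NSCHRas-shp53 sample. It was higher in samples 1 and 2 than in 3 and 4 of NPCTKO. Its place is not resolved from that of Cdc25c (-2.70), within the standard errors, and without NPCTKO samples 1 and 2 Cdc20 (-2.55) came after Cdc25c (-3.18), Cenpf (-2.77), Cenpe (-2.75), Top2a (-2.63), Kif2c (-2.62) and Hmmr (-2.59). Ube2c, the ubiquitin-conjugating enzyme that works with the complex, was read at 83.4, 60.9, 63.1 and 72.1 CPM in NPCTKO samples 1 to 4 and at 15.96, 31.4 and 19.98 CPM in NSCHRas-shp53 samples 1 to 3 (log2 fold change -1.64 ± 0.32 (SE), edgeR adjusted p = 0.016), and sample 2 was the highest of NSCHRas-shp53.

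By edgeR 0 of the 6 centromere and kinetochore genes passed the test (0 by DESeq2, 1 lower at an unadjusted p under 0.05), and in each the groups overlapped. Cenpa, the histone that marks centromeres (chromosome 5 of mm10 from 30666777 to 30674830), had 103, 101, 81.1 and 126 CPM in NPCTKO samples 1 to 4 and 85.04, 24.05 and 18.4 CPM in NSCHRas-shp53 samples 1 to 3. Sample 1 of NSCHRas-shp53 lay within the NPCTKO range and the other 2 far below it (log2 fold change -1.28 ± 0.54 (SE), edgeR adjusted p = 0.15), and Cenpa was called when that sample was left out. In FPKM, NSCHRas-shp53 sample 1 held 25.8 FPKM, below the lowest NPCTKO value of 41.1, and limma on log2(FPKM + 1) called Cenpa lower (-1.86, adjusted p = 0.022). Cenpf, a large protein of the outer kinetochore, was read at 11.9, 7.95, 92.2 and 82.03 CPM against 8.14, 13.4 and 16.003 CPM (log2 fold change -1.95 ± 0.87 (SE), edgeR adjusted p = 0.17). Cenpe, the kinesin that carries chromosomes to the spindle equator, was read at 9.82, 6.40, 65.7 and 95.7 CPM against 5.47, 14.5 and 15.2 CPM (log2 fold change -1.92 ± 0.95 (SE), edgeR adjusted p = 0.21). Ndc80, Nuf2 and Spc25 are subunits of 1 complex, the main coupler of kinetochores to microtubules. Ndc80 was at 4.17, 5.07, 25.9 and 26.7 CPM against 3.83, 7.15 and 5.49 CPM and Nuf2 at 9.75, 10.6, 44.8 and 51.5 CPM against 12.5, 15.3 and 11.5 CPM. Spc25, the smallest difference but 1 of the 41, was at 3.57, 4.45, 18.8 and 20.5 CPM against 9.62, 9.79 and 9.90 CPM (log2 fold change -0.28 ± 0.65 (SE), edgeR adjusted p = 0.82), so that the NSCHRas-shp53 samples lay between samples 1 and 2 and samples 3 and 4 of NPCTKO. All 5 genes after Cenpa had samples 3 and 4 over 2 times above samples 1 and 2.

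Among the kinesins, motors that slide or shorten spindle microtubules, Kif2c was called and 2 of the 3 that could be tested had no overlap. Kif2c (MCAK), which takes apart microtubules at kinetochores, was read at 37.9, 36.1, 50.6 and 51.6 CPM in NPCTKO samples 1 to 4 and at 7.38, 8.83 and 8.13 CPM in NSCHRas-shp53 samples 1 to 3, 5.43-fold higher in NPCTKO (log2 fold change -2.44 ± 0.30 (SE), edgeR adjusted p = 0.0040). Kif11 (Eg5), which pushes the spindle poles apart, was read at 11.8, 11.1, 68.2 and 64.8 CPM in NPCTKO samples 1 to 4 and at 15.5, 15.9 and 13.3 CPM in NSCHRas-shp53 samples 1 to 3 and was not called (log2 fold change -1.39 ± 0.70 (SE), edgeR adjusted p = 0.22). Kif4, a motor on chromosome arms and the midzone, was at 17.1, 13.2, 53.7 and 60.4 CPM against 8.80, 10.2 and 13.1 CPM (log2 fold change -1.75 ± 0.59 (SE), edgeR adjusted p = 0.088). Kif18b, a plus-end motor, was read only as FPKM, at 13.7, 9.33, 12.1 and 12.8 in NPCTKO and 1.64, 1.72 and 1.99 in NSCHRas-shp53, without overlap. On the log2(FPKM + 1) scale limma gave a difference of -2.21 (adjusted p = 0.0030), where it called 4.44% of 17760 genes lower and 7.62% higher.

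Of 4 other spindle proteins, Dlgap5 was called. Dlgap5 (HURP), which stabilizes microtubules near chromosomes, was read at 21.2, 20.7, 47.4 and 52.3 CPM in NPCTKO samples 1 to 4 and at 7.76, 8.93 and 8.91 CPM in NSCHRas-shp53 samples 1 to 3 (log2 fold change -2.05 ± 0.44 (SE), edgeR adjusted p = 0.022). Tpx2, the activator of Aurka on the spindle, was the most abundant in CPM, at 50.8, 44.5, 99.97 and 98.6 CPM against 34.2, 41.2 and 37.02 CPM (log2 fold change -0.97 ± 0.37 (SE), edgeR adjusted p = 0.12). Hmmr, which ties microtubules to spindle poles, was at 10.9, 11.8, 45.6 and 64.6 CPM against 7.76, 9.84 and 9.17 CPM and Nusap1, a microtubule bundler, at 11.6, 9.75, 49.6 and 34.3 CPM against 10.9, 13.6 and 12.8 CPM, neither of them called. Tpx2 and Hmmr did not overlap between the models, but the lowest NPCTKO sample was only 1.08 and 1.11 times the highest NSCHRas-shp53 sample.

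Midzone and cytokinesis genes, which build the central spindle and the contractile ring, were split, with 2 of 5 called. Racgap1, the GTPase-activating subunit of centralspindlin (chromosome 15 of mm10 from 99620496 to 99651656), had 115, 111, 159 and 132 CPM in NPCTKO samples 1 to 4 and 27.2, 29.2 and 28.7 CPM in NSCHRas-shp53 samples 1 to 3 (log2 fold change -2.19 ± 0.27 (SE), edgeR adjusted p = 0.0039). Its 3 NSCHRas-shp53 values lay within 1.08-fold of each other. Kif23 (MKLP1), the motor subunit of the same complex, was read at 14.3, 8.81, 66.01 and 64.98 CPM against 17.98, 16.03 and 11.4 CPM and was not called (log2 fold change -1.35 ± 0.72 (SE), edgeR adjusted p = 0.24). Kif20a (MKLP2), which brings passenger proteins to the midzone, was at 20.7, 19.2, 37.3 and 27.5 CPM against 6.18, 5.02 and 8.30 CPM (log2 fold change -2.01 ± 0.39 (SE), edgeR adjusted p = 0.015). Ect2, the exchange factor that switches on RhoA at the cell equator, was at 16.1, 17.7, 54.4 and 72.5 CPM against 17.2, 16.4 and 15.6 CPM (log2 fold change -1.29 ± 0.57 (SE), edgeR adjusted p = 0.17). Its samples 1 and 2 of NPCTKO lay within the NSCHRas-shp53 range or next to it. Anln (anillin), a scaffold of the contractile ring (chromosome 9 of mm10 from 22332012 to 22389188), showed the estimate nearest 0, at 15.9, 13.9, 66.5 and 92.7 CPM in NPCTKO samples 1 to 4 and at 44.9, 42.6 and 42.2 CPM in NSCHRas-shp53 samples 1 to 3 (log2 fold change -0.13 ± 0.65 (SE), edgeR adjusted p = 0.92). Prc1, which cross-links antiparallel microtubules, was read only as FPKM, at 16.8, 16.6, 22.9 and 48.2 in NPCTKO and 9.89, 13.5 and 13.4 in NSCHRas-shp53 (-0.91 on the log2(FPKM + 1) scale, limma adjusted p = 0.17).

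By edgeR 0 of the 2 genes of chromosome structure were called, against 1 by DESeq2 and 1 at an unadjusted p under 0.05. Top2a, the topoisomerase that untangles sister chromatids (chromosome 11 of mm10 from 98992943 to 99024189), had the highest mean CPM of the members in both models, at 97.5, 131, 377 and 469 CPM in NPCTKO samples 1 to 4 and at 59.2, 64.1 and 76.9 CPM in NSCHRas-shp53 samples 1 to 3. It was not the highest in every library, since Cdc20, Racgap1, Cenpa and Incenp exceeded it in NPCTKO sample 1 and Cenpa in NSCHRas-shp53 sample 1. Its groups did not overlap and it stood closest to the threshold (log2 fold change -2.01 ± 0.59 (SE), edgeR adjusted p = 0.058). DESeq2, which called 9.41% of 19690 genes lower, called Top2a along with Cdc25b, Hmmr and Kif4. Mki67, which encodes the proliferation marker Ki67, a protein that coats mitotic chromosomes (chromosome 7 of mm10 from 135689784 to 135716361), had 14.7, 17.1, 189 and 220.4 CPM in NPCTKO samples 1 to 4 and 25.2, 40.2 and 41.5 CPM in NSCHRas-shp53 samples 1 to 3 (log2 fold change -1.63 ± 0.96 (SE), edgeR adjusted p = 0.29). Its NSCHRas-shp53 samples lay above samples 1 and 2 of NPCTKO and far below samples 3 and 4.

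**Figure D3:**
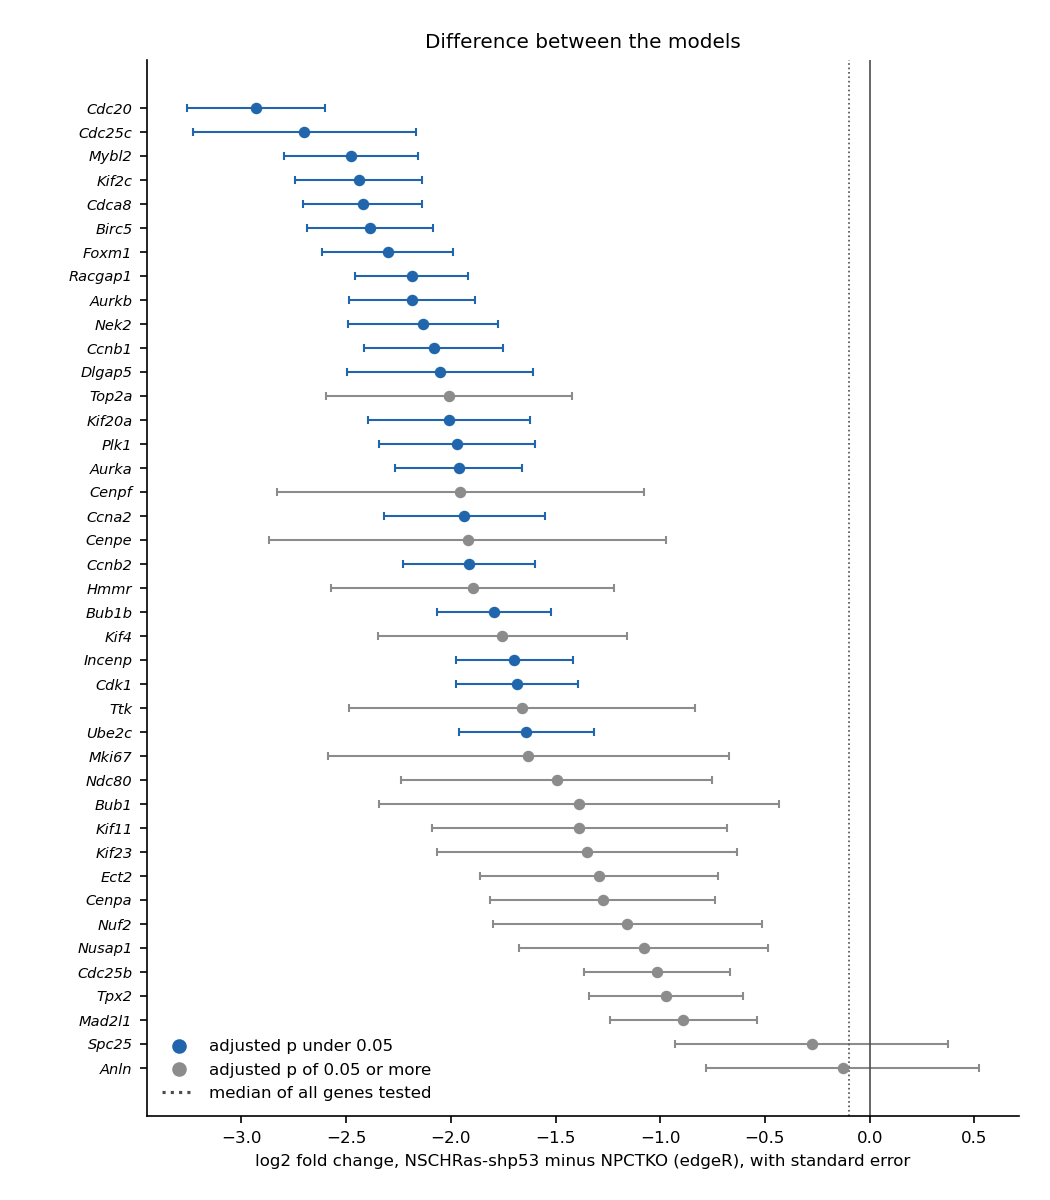
Log2 fold change of each of the 41 mitosis genes with counts, NSCHRas-shp53 minus NPCTKO by edgeR (x axis), with its standard error as a bar, in blue where the adjusted p was under 0.05 and in grey elsewhere, and the median of all genes tested (-0.10) as a dotted line. The genes run from Cdc20 (-2.93) to Anln (-0.13), and the grey bars of Cenpe, Mki67, Bub1 or Ttk are wider than the blue ones.

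Called genes differed from the others in the size of the estimate and in the spread between libraries. The call itself rests on both, so this contrast is partly built in and only describes the genes, and neither was tested. Of the 20 genes not called, 14 had estimates nearer 0 than every called gene, down to Anln (-0.13). The other 6 lay within the range of the called genes. Among them Top2a (-2.01), Cenpf (-1.95), Cenpe (-1.92) and Hmmr (-1.90) had estimates as large as those of called genes such as Cdk1 (-1.68) or Ube2c (-1.64). The highest NPCTKO library was 1.19 to 3.61 times the lowest for the 21 called genes (median 1.70) and 1.55 to 15.0 times for the 20 others (median 5.84). In 16 of the 20 this ratio was above that of every called gene, and in Cdc25b, Mad2l1, Cenpa and Tpx2 it lay within the called range.

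Much of that spread had 1 form. For 17 of the 41 genes, samples 3 and 4 of NPCTKO both held over 2 times as much as the higher of samples 1 and 2, by 2.23 to 11.8 times, while 16.3% of 15539 genes read in all 4 libraries did so. These were Bub1, Ttk, Cenpe, Cenpf, Ndc80, Nuf2, Spc25, Kif11, Kif4, Nusap1, Dlgap5, Hmmr, Kif23, Ect2, Anln, Top2a and Mki67, of which only Dlgap5 was called between the models. For another 18 genes the highest NPCTKO library was under 2 times the lowest, and 15 of these were called. The remaining 6 were Ccnb1, Ccna2, Cdc25c, Plk1, Nek2 and Tpx2, 5 of them called. These sets were made from the NPCTKO values, so the following sums describe them only. The 17 genes summed to 279, 298, 1338 and 1557 CPM in NPCTKO samples 1 to 4 and to 265, 316 and 321 CPM in NSCHRas-shp53. Samples 1 and 2 were thus 0.959 times the NSCHRas-shp53 mean and samples 3 and 4 4.81 times. The 18 even genes summed to 1209, 992, 1203 and 1174 CPM and 324, 309.6 and 275 CPM, 3.63 and 3.93 times the NSCHRas-shp53 mean. The sets depend on the scaling, since without TMM factors, a comparison added after the data were seen, samples 3 and 4 were over 2 times above for 22 genes and the range was under 2 times for 11, and in FPKM these were 15 and 19 of the 41.

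Base composition of the transcripts moved with this split. The 17 genes had a median transcript GC content of 42.9% and a median length of 4086 bases, and the 18 even genes 50.3% and 3403.5 bases. Across the 41 genes, the log2 ratio of samples 3 and 4 to samples 1 and 2 had a Spearman correlation of -0.79 with GC content and 0.51 with length. Across 15149 genes of the table the values were -0.59 and 0.32. These genes share their libraries and are not independent, so the correlations are descriptions. When trends with GC content and length were removed from log2(CPM + 1) before limma, 27 of 41 genes were called lower, where 8.62% of all genes were. All 21 stayed and Cenpf, Ect2, Hmmr, Mad2l1, Nusap1 and Top2a were added. Under that treatment Top2a differed by -2.03 (adjusted p = 0.0043 by limma) and Anln by 0.14 (adjusted p = 0.88). After the same removal, samples 3 and 4 of NPCTKO still lay above samples 1 and 2 in the 17 genes. On the log2 scale, NPCTKO samples 1 to 4 were at 4.68, 4.93, 7.11 and 7.44 for Mki67. For Bub1 they were at 2.85, 2.87, 5.06 and 5.22, and for Ect2 at 4.97, 4.96, 5.33 and 5.88. The cause of the split was not tested.

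**Figure D4:**
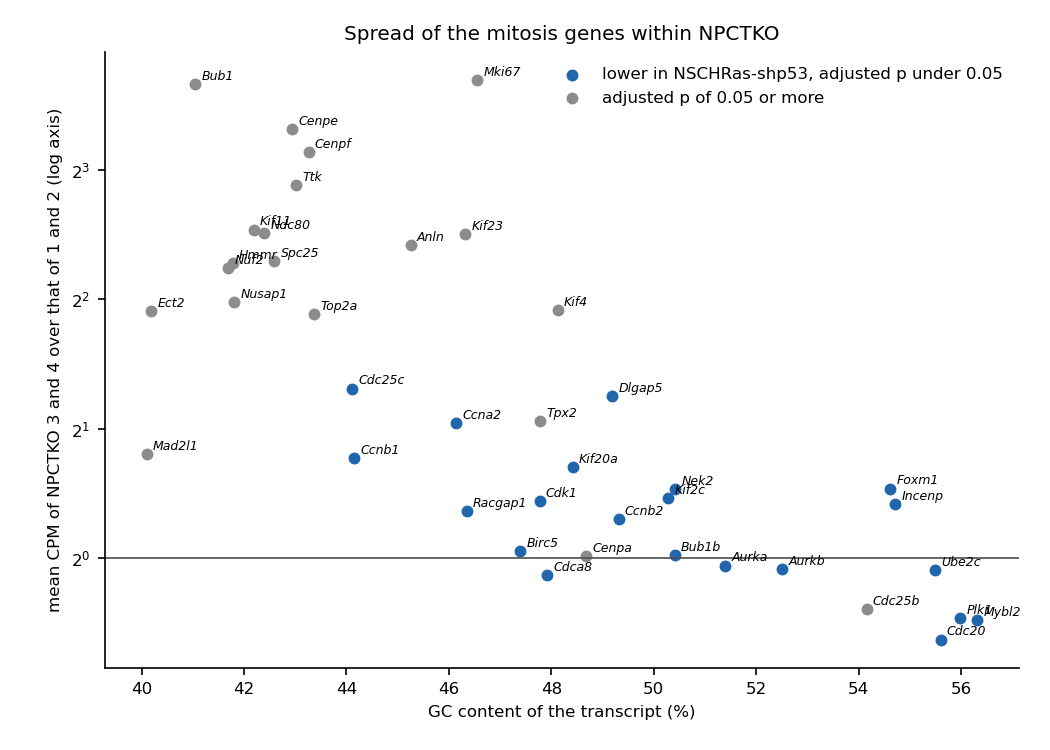
Ratio of the mean CPM of NPCTKO samples 3 and 4 to that of samples 1 and 2 (y axis, log scale) against the GC content of the transcript in percent (x axis) for 41 mitosis genes, blue where the gene was called lower in NSCHRas-shp53 and grey elsewhere. Genes of low GC content such as Bub1 and Cenpe lie high and GC-rich genes such as Cdc20 and Mybl2 lie below a ratio of 1.

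The comparison of the models was therefore repeated without either pair. By median chi-square per gene between counts, samples 1 and 2 of NPCTKO differed by 4.89 and samples 3 and 4 by 10.99. NPCTKO libraries of different pairs differed by 39.0 to 55.7. Whether the samples of a pair share a tumor is not stated, so each fit may rest on 1 NPCTKO tumor. Without NPCTKO samples 1 and 2, 38 of 41 genes were lower in NSCHRas-shp53, where 7.40% of all genes were, and the 3 left were Cdc25b, Cenpa and Spc25. Without samples 3 and 4, an alternative added after the data were seen, 23 genes were lower and 4 higher, where 26.0 and 27.9% of all genes were, and 29 of 41 estimates lay below 0. The 4 were Anln (1.52, edgeR adjusted p = 0.0018), Bub1 (1.37, 0.029), Spc25 (1.27, 0.017) and Mki67 (1.15, 0.015). Against samples 3 and 4 alone, Mki67 was at -2.49 (edgeR adjusted p = 0.0066), Bub1 at -2.24 (0.011), Anln at -0.85 (0.049) and Spc25 at -0.98 (0.056). The 21 genes called on all libraries were called in both of these fits, Cdc20 at -2.55 and -3.22.

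Calls, among the members as over the whole table, also depended on single NSCHRas-shp53 libraries. The median of the 41 estimates stayed between -1.77 and -1.90 when any of the 3 was left out. Without sample 3, 10 genes were called, and Ccna2, Ccnb1, Ccnb2, Cdc25c, Cdk1, Dlgap5, Incenp, Kif20a, Nek2, Plk1 and Ube2c were not. Of these Cdk1 was at -1.62 (edgeR adjusted p = 0.068), Ccnb1 at -2.04 (0.054) and Nek2 at -2.14 (0.058) on the log2 scale, against -1.68, -2.08 and -2.13 on all libraries. Without sample 1, 15 were called, with Ccna2, Cdc25c, Cdk1, Dlgap5, Kif20a, Plk1 and Ube2c lost and Cenpa gained. Without sample 2, 15 were called, with Ccna2, Ccnb2, Cdc25c, Dlgap5, Incenp and Kif20a lost. Over the whole table, calls in either direction numbered 2101 of 16091 genes on all libraries. They fell to 539 of 16521 without sample 3, 938 of 16738 without sample 1 and 602 of 16637 without sample 2. Aurka, Foxm1, Mybl2, Aurkb, Birc5, Cdca8, Bub1b, Cdc20, Kif2c and Racgap1 were called in each of the 22 alternative fits. The median estimate of the members stayed below 0 in every one of them.

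Several lists of cell type markers differed between the preparations. Summed over 12 tumor-associated macrophage (TAM) genes, the level was 19369, 23789, 453 and 3066 CPM in NPCTKO samples 1 to 4, although the cells were sorted, and 7016, 2509 and 3164 CPM in NSCHRas-shp53 (0 of 11 tested genes called between the models). B cell genes summed to 107, 79.002, 1.82 and 3.14 CPM in NPCTKO and to 2.54 to 5.19 CPM in NSCHRas-shp53 (0 of 4 called by edgeR, 2 lower by DESeq2). The 2 NPCTKO samples with low Mki67 and Bub1 were thus those with the most TAM and B cell RNA. Granulocyte genes summed to 395, 376, 8.44 and 65.5 CPM in NPCTKO and 60.8 to 135 CPM in NSCHRas-shp53, and T cell genes to 68.6, 63.7, 10.9 and 16.02 CPM and 39.3 to 76.6 CPM, so that both were also higher in samples 1 and 2 than in samples 3 and 4 of NPCTKO (0 of 5 and 0 of 9 called between the models). Neuron genes summed to 40.97 to 56.8 CPM in NPCTKO and 464 to 714 CPM in NSCHRas-shp53 (9 of 10 higher by edgeR), astrocyte genes to 219 to 603 and 2688 to 3660.3 CPM (5 of 6 higher). Endothelial genes summed to 47.8 to 319 and 673 to 1319.5 CPM (4 of 9 higher) and mural genes to 20.7 to 36.9 and 290.2 to 483 CPM (5 of 8 higher). Genes of oligodendrocyte precursors summed to 2333 to 5523 and 497 to 867 CPM (6 of 7 lower), and neural stem cell genes to 811 to 2304 and 3734 to 7188 CPM (2 of 4 higher). In the paper, many NPCTKO tumor cells expressed OLIG2 and SOX2, and NSCHRas-shp53 tumors held precursor-like and astrocyte-like tumor cells. The precursor, neural stem and astrocyte lists thus do not separate tumor cells from other cells. Oligodendrocyte genes summed to 5583, 5788, 3693 and 826 CPM in NPCTKO and 7712, 2746 and 1011 CPM in NSCHRas-shp53, with overlapping ranges (1 of 7 higher). Defining markers at 0 in every library were P2ry12, Ms4a1, Gfap and Sox2, all wholly overlapped by other genes, and Kcnj8 of mural cells was at 0 in NPCTKO sample 2. Mitochondrial genes took 0.411 to 1.15% of the counts in NPCTKO and 1.79 to 5.39% in NSCHRas-shp53. The part of other cells, of tumor cell state and of RNA quality in the difference of the mitosis genes was not tested.

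Among the other genes of the pathway, calls were also in 1 direction. Of 109 tested genes in 5 further lists of mitosis genes, 31 were lower in NSCHRas-shp53 and 0 higher by edgeR (58 and 0 at an unadjusted p under 0.05, 45 and 0 by DESeq2), with a median log2 fold change of -1.14 and 52 genes without overlap, all higher in NPCTKO. Bub3 and Wee1 were at 0 in all libraries and could not be read. The 109 summed to 4763, 4267, 6246 and 5825 CPM in NPCTKO and 2714, 3054 and 2810.4 CPM in NSCHRas-shp53. On all libraries 5.28% of all genes tested were lower by edgeR, and 14.9% had every NPCTKO library above every NSCHRas-shp53 library. Without NSCHRas-shp53 sample 3 the count of these mitosis genes was 9, without sample 2 it was 11 and without sample 1 it was 14. Calls over the whole table fell in the same fits, as given above. Without NPCTKO samples 3 and 4, 42 of these genes were called lower and 14 higher, where 26.0 and 27.9% of all genes were.

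Of 33 further kinetochore and centromere genes, 7 were lower. They include Spc24, the partner of Spc25 in the Ndc80 complex, at 31.2, 24.96, 24.7 and 18.2 CPM against 4.21, 4.16 and 2.85 CPM (log2 fold change -2.73 ± 0.37 (SE), edgeR adjusted p = 0.0052), in which samples 3 and 4 of NPCTKO did not lie above samples 1 and 2. Cenpm, of the inner kinetochore, was at 25.5, 25.9, 17.2 and 14.8 CPM against 2.79, 3.04 and 1.56 CPM (log2 fold change -3.08 ± 0.44 (SE), edgeR adjusted p = 0.0065). Pmf1, of the Mis12 complex, was at 87.3, 72.4, 36.8 and 35.8 CPM against 13.99, 10.2 and 10.1 CPM and Cenpn, which binds Cenpa nucleosomes, at 17.4, 20.7, 25.4 and 28.7 CPM against 6.56, 6.85 and 6.57 CPM, both called. In this list Pmf1 was higher in samples 1 and 2 and Cenpn in samples 3 and 4 of NPCTKO.

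Of 22 tested genes of the checkpoint, cohesin release and the anaphase-promoting complex, 5 were lower. Espl1 (separase), the protease that opens cohesin, was at 90.1, 63.6, 64.7 and 85.7 CPM against 13.8, 18.2 and 18.9 CPM (log2 fold change -2.16 ± 0.29 (SE), edgeR adjusted p = 0.0051). Cdca5 (sororin), which protects cohesin until anaphase, was at 23.1, 24.1, 13.7 and 20.2 CPM against 3.83, 7.26 and 5.71 CPM (log2 fold change -1.86 ± 0.39 (SE), edgeR adjusted p = 0.020). Ube2s, the enzyme that extends ubiquitin chains for the complex, was at 268, 282, 289.7 and 127 CPM against 103, 83.7 and 61.5 CPM and its subunit Anapc7 at 106, 88.6, 67.5 and 61.2 CPM against 44.4, 30.7 and 35.6 CPM, both called. Of 8 condensin genes, 3 were lower, namely Ncapd2 at 164, 138, 173 and 199 CPM against 36.5, 41.05 and 39.1 CPM (log2 fold change -2.12 ± 0.27 (SE), edgeR adjusted p = 0.0045), Ncaph2 and Ncaph. Ncapg, another condensin subunit, was split like Bub1, at 5.38, 5.77, 53.9 and 52.3 CPM against 6.01, 7.15 and 7.74 CPM, and was not called (log2 fold change -2.07 ± 0.89 (SE), edgeR adjusted p = 0.16).

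Of 32 further spindle and midzone genes, 11 were lower. Sapcd2, which helps orient the spindle, held the largest difference named here, at 193, 109, 44.1 and 52.8 CPM against 4.15, 5.83 and 4.11 CPM (log2 fold change -4.41 ± 0.62 (SE), edgeR adjusted p = 0.0062). Troap, a spindle-associated protein, was at 34.6, 24.1, 43.8 and 43.3 CPM against 3.12, 5.53 and 5.32 CPM (log2 fold change -2.97 ± 0.39 (SE), edgeR adjusted p = 0.0050). Kifc1, a minus-end kinesin that gathers spindle poles, and its near-identical copy Kifc5b were both called, at 64.2, 46.8, 47.1 and 49.02 CPM against 9.18, 14.8 and 12.7 CPM and 41.4, 26.7, 36.5 and 38.8 CPM against 7.10, 9.59 and 7.31 CPM, but reads may be split between the copies and these values are uncertain. Of 14 tested genes of mitotic entry, 5 were lower. Pkmyt1, a kinase that restrains Cdk1, was at 35.1, 37.4, 28.5 and 19.4 CPM against 8.42, 8.22 and 6.36 CPM (log2 fold change -1.97 ± 0.35 (SE), edgeR adjusted p = 0.012), and Cdc25a, the phosphatase that opposes it, at 43.2, 40.2, 41.9 and 38.6 CPM against 12.02, 16.4 and 16.7 CPM (log2 fold change -1.45 ± 0.27 (SE), edgeR adjusted p = 0.015). Cdca3, a target of the anaphase-promoting complex, was at 47.2, 31.1, 44.4 and 39.6 CPM against 8.96, 13.7 and 8.95 CPM and Cdca2, which recruits a phosphatase to chromatin, at 21.3, 20.8, 41.2 and 60.2 CPM against 7.54, 10.1 and 6.79 CPM, both called.

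Genes of DNA replication, which are read earlier in the cycle, were lower in NSCHRas-shp53 as well. Of 52 tested S phase genes, 29 were lower and 0 higher by edgeR (42 and 0 at an unadjusted p under 0.05, 39 and 0 by DESeq2), with a median log2 fold change of -1.68, among them Mcm5 of the replicative helicase at 238, 272, 137 and 139 CPM against 24.05, 21.8 and 19.6 CPM (log2 fold change -3.17 ± 0.38 (SE), edgeR adjusted p = 0.0037). On all libraries 5.28% of all genes tested were lower. Without NSCHRas-shp53 sample 1 the count of S phase genes was 14, and without sample 2 or sample 3 it was 11, in fits where calls over the whole table fell as well. Summed, they held 3115, 3099, 3103 and 2742 CPM in NPCTKO and 949, 981 and 955 CPM in NSCHRas-shp53. Within NPCTKO the highest sum was 1.14 times the lowest, or 1.27 times in FPKM, but without TMM factors the sums were 2406, 2363, 3628 and 3024 CPM, a range of 1.54 times with samples 3 and 4 above samples 1 and 2. For the mitosis genes these ranges were 2.05 times, 1.55 times in FPKM, with Kif18b and Prc1 included, and 2.97 times without TMM factors. All FPKM values together summed to 972436 and 952516 in NPCTKO samples 1 and 2 and to 419433 and 469614 in samples 3 and 4. The ranges therefore depend on the scale, and an even S phase level within NPCTKO is not settled. The ratio of summed mitosis genes to summed S phase genes was 0.561, 0.490, 0.948 and 1.14 in NPCTKO samples 1 to 4 and 0.714, 0.746 and 0.721 in NSCHRas-shp53. The NSCHRas-shp53 ratios thus lay between those of the 2 pairs of NPCTKO samples. The difference between the models in these ratios was not tested.

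**Figure D5:**
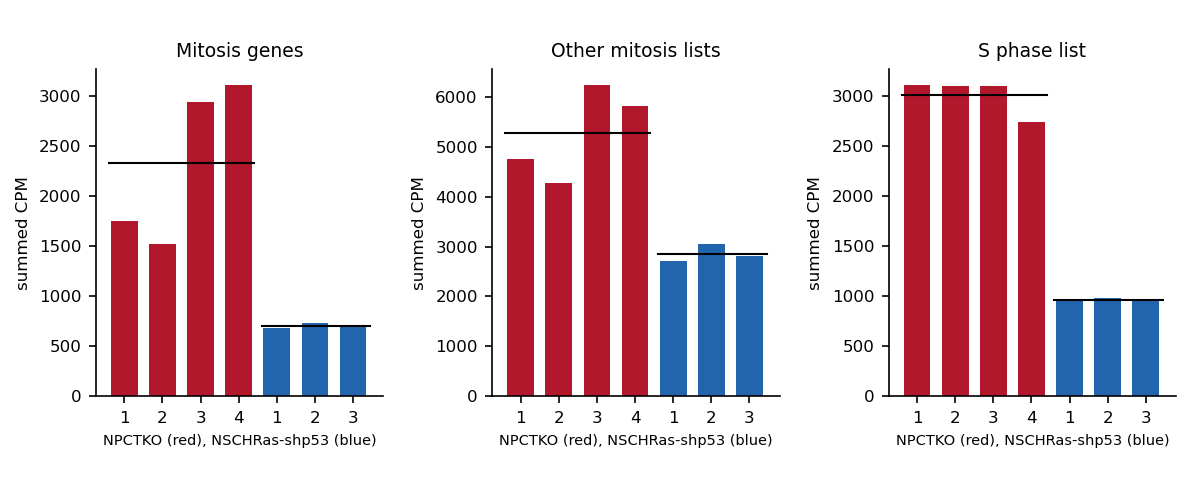
Summed CPM with TMM factors (y axis, from 0) of the mitosis genes (Kif18b and Prc1 add 0), of 5 further lists of mitosis genes together and of the S phase list in each library, red for NPCTKO samples 1 to 4 and blue for NSCHRas-shp53 samples 1 to 3, with a black line at the mean of each model. The mitosis genes range from 1519 to 3116 CPM among the NPCTKO samples, while the S phase sums of the same samples lie between 2742 and 3115 CPM.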

How the data were processed

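Bulk RNA-seq of 4 NPCTKO and 3 NSCHRas-shp53 samples was used, grouped by the sample labels. Poly(A) RNA was sequenced as paired ends from non-directional NEBNext libraries. Reads were trimmed by the authors with Cutadapt (1.16 in the submitters' processing notes) and mapped to mm10 with TopHat 2.1.1. Raw counts per gene were used as deposited by the authors, with no counting tool named in the sources. Cufflinks 2.2.1 gave the FPKM values that the authors deposited, and rows with the same single gene name were summed. Foxm1 and Anln share their FPKM row with another gene. Cdk1 and 3 other members differ in coordinates from GENCODE vM21, and the table's coordinates are given. No column of fold changes or p-values was used, and each library differed from the others of its group beyond sampling noise.

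The models were compared by the quasi-likelihood test of edgeR 4.0.16 (filterByExpr, TMM normalization, no covariates, adjusted p under 0.05) in R 4.3.3 over the whole table, NSCHRas-shp53 minus NPCTKO. Alternatives used DESeq2 1.42.0 and limma 3.58.1, on log2(FPKM + 1), log2(FPKM + 0.1) or log2(CPM + 1), the last also with lowess trends (span 0.3) on GC content and length of the longest GENCODE transcript removed. Sums and motifs were computed in Python 3.11.15, and the fits were tested on simulated data. Fold changes on the log2(value + 1) scale understate the change of low genes. The members, the lists and the rule for named genes were chosen with earlier results of these data known. Values in every library are given for called members, the 2 highest in CPM of each role, and the 3 largest and 3 smallest differences, along with other members, and the 4 genes of smallest p are named for each further mitosis list. Some symbols of the lists were read under older names, such as Fam64a for Pimreg.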

Additional observations from a re-analysis of the deposited data

How the results depend on the processing

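The count of 21 genes called lower was 21 with RLE size factors, without a filter on low counts, with a minimum of 1 CPM in 3 libraries, without wholly overlapped genes and with limma on log2(CPM + 1), and 25 with DESeq2. On FPKM values it was 23 or 24 of 43. Leaving out 1 library at a time gave 10 to 22 members called, 9 to 30 of the other mitosis genes and 11 to 29 of the S phase genes lower. The lowest counts came where an NSCHRas-shp53 library was left out, as they did over the whole table. Without NPCTKO samples 1 and 2, 38 members and 67 of the other mitosis genes were lower. Without samples 3 and 4, 4 members and 14 of the other mitosis genes were higher, where 27.9% of all genes were.

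The replicate numbers showed no clear pairing of the samples. Same-numbered deviations correlated at 0.25, -0.20 and 0.22 for numbers 1 to 3, and NPCTKO sample 2 correlated best with NSCHRas-shp53 sample 1. Deviations from a mean of 3 samples are tied to each other, so these values cannot exclude a pairing. A fit with the replicate block called 14 members, 13 other mitosis genes and 16 S phase genes lower, on 6 of the 7 libraries. Over the whole table this fit called 1069 of 15872 genes in either direction. In it Bub1 stood at 0.16, Mki67 at 0.021, Spc25 at 0.56 and Anln at 0.84 (log2). With the replicate block and GC and length trends removed, 21 members were called, Spc25 stood at 0.050 and Anln at 0.51.

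Of 902 single-gene values under the alternatives, 800 kept direction and side of the threshold, 36 lost the call, 38 gained it and 28 changed sign, all of them in genes not called on all libraries. Without NPCTKO samples 3 and 4 the sign turned for Bub1 (1.37), Ttk (0.39), Cenpe (0.52), Cenpf (0.32), Ndc80 (0.24), Nuf2 (0.35), Spc25 (1.27), Kif11 (0.37), Nusap1 (0.21), Kif23 (0.37), Anln (1.52) and Mki67 (1.15). Anln also turned with limma on log2(FPKM + 1) (0.22, the same for mean FPKM of at least 1), on log2(FPKM + 0.1) (0.30), on log2(CPM + 1) (0.32) and with GC and length trends removed (0.14). Spc25 was 0.087 with limma on log2(CPM + 1). Leaving out 1 library at a time gave -0.55 to 0.12 for Spc25 and -0.40 to 0.42 for Anln. The cause was not tested.

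In the promoter windows, the 150 bases before the start site held the homology region in 22.9%, GGCGG in 71.4% and the MYB motif in 20.0% of the members, and the 100 bases around it held CCAAT in 57.1%, GGCGG in 68.6%, the MYB motif in 37.1% and the E2F spellings in 0%, shorter spans by construction. The 41 genes held over 3 counts in every library. What limited the calls, depth included, was not tested.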
